A study of Mus musculus with 26 samples.

Results

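The urea cycle turns ammonia and the nitrogen of amino acids into urea, and in the mammalian liver its enzymes are most abundant in the hepatocytes around the portal tracts. Carbamoyl phosphate synthetase 1 (Cps1) fixes ammonia in the mitochondria and needs N-acetylglutamate, made by Nags, as its activator. Ornithine transcarbamylase (Otc) joins the product to ornithine, which Slc25a15 carries into the mitochondria, and argininosuccinate synthetase (Ass1), argininosuccinate lyase (Asl) and arginase 1 (Arg1) complete the cycle in the cytosol. Liver glutaminase (Gls2), serine dehydratase (Sds) and histidine ammonia-lyase (Hal) release ammonia from glutamine, serine and histidine in the same zone. These 10 genes were taken by name, each through its Ensembl ID, from a table of 55642 genes measured by RNA-seq in 26 mouse livers. All 10 were found and all 10 passed the filter on low counts, which left 17104 genes for testing.

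The livers came from 8 homozygous Mtarc1 knockout (KO) samples, 7 heterozygous KO samples and 6 wildtype (WT) samples on a choline-deficient, amino acid-defined, high-fat diet (CDAHFD) given for 2 weeks, and from 5 WT samples on a control chow diet. Mtarc1 encodes mitochondrial amidoxime reducing component 1, an outer-membrane molybdenum enzyme. The structure of the Mtarc1 allele and the age, sex and strain of the mice are not stated in the labels. KO livers on chow were not analysed here, so genotype was compared on CDAHFD only. Samples are numbered within a group, but the labels do not name the animal behind each number, and the p-values cover the spread between samples, which may be technical in part. The genes were identified as Cps1 (ENSMUSG00000025991.9, chromosome 1), Otc (ENSMUSG00000031173.14, chromosome X), Ass1 (ENSMUSG00000076441.10, chromosome 2), Asl (ENSMUSG00000025533.16, chromosome 5), Arg1 (ENSMUSG00000019987.10, chromosome 10), Nags (ENSMUSG00000048217.12, chromosome 11), Slc25a15 (ENSMUSG00000031482.10, chromosome 8), Gls2 (ENSMUSG00000044005.14, chromosome 10), Sds (ENSMUSG00000029597.15, chromosome 5) and Hal (ENSMUSG00000020017.15, chromosome 10).

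Libraries held 19728398 to 29906599 estimated counts, and the 10 genes had between 975 and 68957 counts per library. Mtarc1 averaged 48.7 ± 10.4 CPM (counts scaled to a common library total) in homozygous KO livers, 161 ± 33.7 CPM in heterozygous KO livers, 235 ± 40.6 CPM in WT CDAHFD livers and 305 ± 40.2 CPM in chow livers (SD, n = 8, 7, 6 and 5), in the order the labels imply for genotype. Liver identity was checked with 15 hepatocyte genes, all detected, which summed to 103576 to 147869 CPM in homozygous KO livers, 97075 to 137214 CPM in heterozygous KO livers, 94882 to 138582 CPM in WT CDAHFD livers and 134449 to 171226 CPM in chow livers. Kidney and intestine also use some of these enzymes. The 5 kidney markers summed to 0.204 to 2.90 CPM per library, with Slc12a1 at 0 in 22 libraries, Umod in 17, Slc34a1 in 9, Kap in 3 and Lrp2 in 0. Of the 5 intestinal markers Alpi was at 0 in 26 libraries, Sis in 23, Lct in 13 and Vil1, at up to 0.801 CPM, in 0. Fabp2, the fifth, was detected in every library, at 164 ± 23.2 CPM in homozygous KO, 152 ± 6.92 CPM in heterozygous KO, 147 ± 20.8 CPM in WT CDAHFD and 49.5 ± 4.82 CPM in chow livers (SD, n = 8, 7, 6 and 5), and was called higher on the diet (1.57 ± 0.11, edgeR adjusted p = 5.2e-10); its part in the results was not tested. Library numbers in the labels fall into a series in the 9000s (2 homozygous KO, 3 heterozygous KO, 3 WT CDAHFD and 1 chow library) and a series in the 11000s (6, 4, 3 and 4 libraries, in that order), and the labels do not say what the number stands for.

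Scaled by exon length, the 10 genes spanned a wide range of levels. In WT CDAHFD livers Ass1 stood at 719 ± 224 CPM per kilobase of exon, Arg1 at 466 ± 119, Cps1 at 195 ± 82.7 and Sds at 129 ± 53.4 CPM per kilobase (SD, n = 6). In chow livers the same 4 genes led, with Ass1 at 1168 ± 92.2, Arg1 at 663 ± 70.5, Cps1 at 216 ± 57.1 and Sds at 185 ± 25.7 CPM per kilobase (SD, n = 5). The length is that of all annotated exons of a gene merged, not of the transcripts expressed. By mean CPM, Otc, Asl and Hal were above Sds in chow livers (471, 492 and 480 against 314 CPM). They were so in WT CDAHFD livers too (375, 305 and 224 against 218 CPM), so the place of Sds depends on the length used. The mitochondrial supply side was lowest: Nags, which makes the Cps1 activator, stood at 19.3 ± 4.35 CPM per kilobase in WT CDAHFD livers and 31.3 ± 4.81 in chow livers, and the ornithine carrier Slc25a15 at 29.4 ± 9.49 and 31.5 ± 3.35 CPM per kilobase in the same order. Gls2 stood at 105 ± 11.9 CPM per kilobase in chow livers. Arg1 stood far above the mitochondrial arginase Arg2 (0.0570 ± 0.0339 CPM per kilobase in chow livers).

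Across the 4 groups, WT CDAHFD livers had the lowest mean CPM for 10 of the 10 genes, and chow livers had the highest mean for 8. The exceptions were Cps1 and Slc25a15, for which heterozygous KO livers were highest. Of neighbouring groups in the order of means, only the top pair differed beyond the spread, and for 2 genes: homozygous KO livers were below chow livers in Gls2 (231 ± 52.3 against 364 ± 41.5 CPM; edgeR adjusted p = 0.00677) and in Hal (301 ± 81.2 against 480 ± 26.2 CPM; edgeR adjusted p = 0.0281). No other neighbours were called. Livers on CDAHFD also varied more in these genes. The median coefficient of variation over the 10 genes was 25.2% in homozygous KO, 24.2% in heterozygous KO and 29.9% in WT CDAHFD livers. It was 11.01% in chow livers. Of the libraries, 2 homozygous KO, 3 heterozygous KO and 3 WT CDAHFD were in the 9000s, against 1 chow library. The part of the series in this spread was not tested, and the spread of all genes is not given here.

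**Figure D1:**
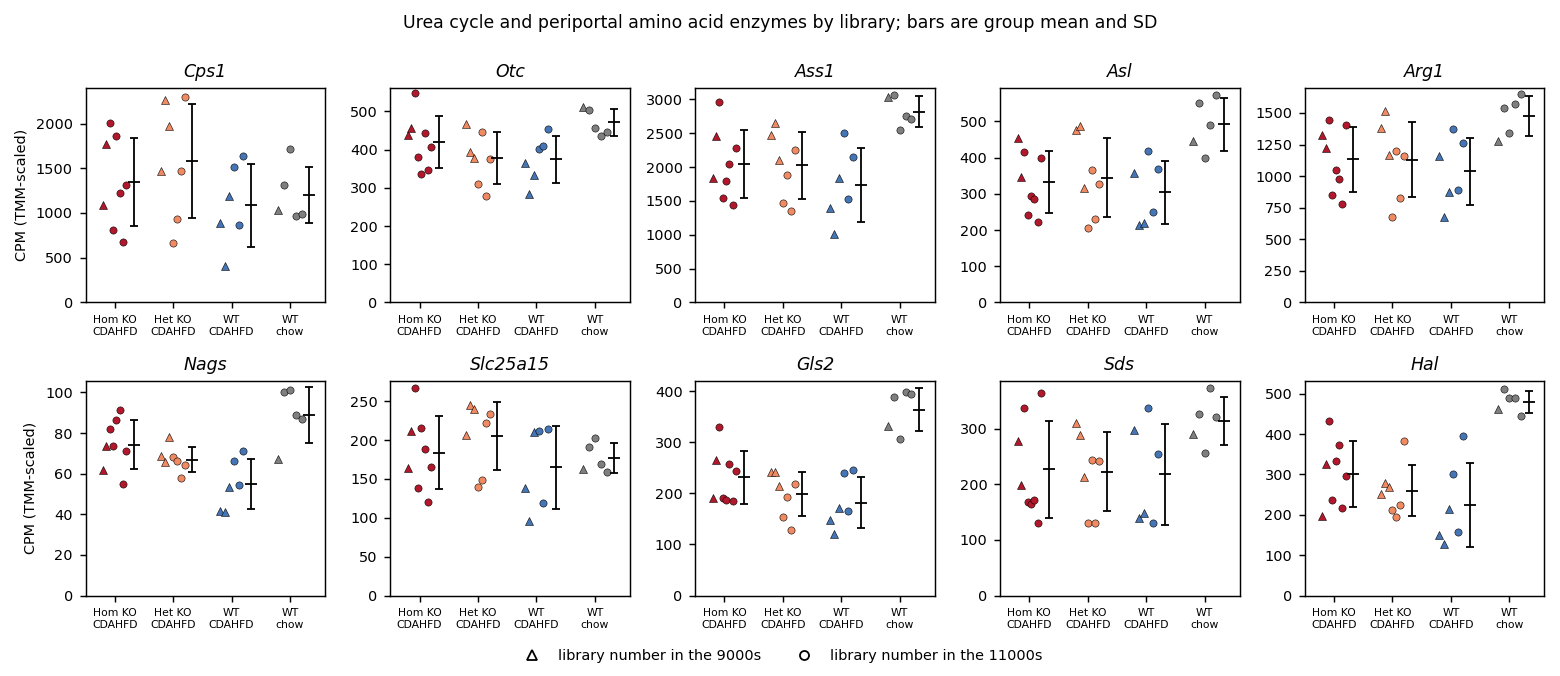
CPM (vertical axes, from 0) of the 10 genes in each library, with homozygous KO, heterozygous KO, WT CDAHFD and WT chow livers from left to right; triangles are libraries numbered in the 9000s, circles those in the 11000s, and black bars are group mean and SD. Gls2, Hal and Ass1 show the 5 chow livers above every WT CDAHFD liver, while Cps1 and Slc25a15 overlap in all groups.

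The diet comparison, WT CDAHFD against WT chow, asked how these enzymes differed after 2 weeks on the diet. Of the 10 genes, 5 were called lower on CDAHFD (Hal, Gls2, Ass1, Nags and Asl; edgeR quasi-likelihood test, adjusted p under 0.05) and 0 were called higher. Over all genes tested, 12.2% were called lower and 14.8% higher. The fitted log2 fold changes of the 10 genes had a median of -0.61, beside -0.01 for all genes, and 10 of 10 lay below 0; scaling by raw library totals or by the 15 hepatocyte genes put Cps1 (0.07 and 0.13) and Slc25a15 (0.13 and 0.18) above 0, and it also moved the median of all genes to 0.22 and 0.29. In whole liver, fewer hepatocytes of a zone and less RNA per cell cannot be told apart.

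Of the 5 enzymes of the cycle itself, the 2 called lower, Ass1 and Asl, both act in the cytosol. Ass1, which condenses citrulline with aspartate, had a lowest, median and highest value of 1011, 1679 and 2501 CPM in WT CDAHFD livers, against 3034, 3064, 2547, 2749.8 and 2706 CPM in the 5 chow livers. All 6 WT CDAHFD livers lay below every chow liver, with a log2 fold change of -0.70 ± 0.20 (SE; edgeR adjusted p = 0.0116). Asl, the next enzyme, had 215, 304 and 417 CPM (lowest, median, highest) in WT CDAHFD livers, against 446, 551, 398, 489 and 574 CPM in chow livers. The groups overlapped in 1 WT CDAHFD liver that lay above the lowest chow liver, and the log2 fold change was -0.69 ± 0.22 (edgeR adjusted p = 0.0208). This call is at the edge of the threshold: it was lost with raw library totals (adjusted p = 0.0512) and without chow sample 2 (0.0514), chow sample 5 (0.057), WT CDAHFD sample 2 (0.0521) or WT CDAHFD sample 3 (0.0556).

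Arg1, which splits arginine into urea and ornithine, was not called at -0.51 ± 0.20 (edgeR adjusted p = 0.0548). It had 680, 1026 and 1371 CPM (lowest, median, highest) in WT CDAHFD livers, against 1279, 1542, 1345, 1569 and 1649 CPM in chow livers, and 5 of 6 WT CDAHFD livers lay below every chow liver. It was called by DESeq2 (adjusted p = 0.0428), by limma voom (0.0455), in a fit of the 2 groups alone (0.0405) and in edgeR fits without WT CDAHFD sample 4 (0.0297), WT CDAHFD sample 6 (0.0414), heterozygous KO sample 4 (0.0376) or homozygous KO sample 7 (0.0469).

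Otc and Cps1, the mitochondrial enzymes of the cycle itself, were not called, and nor was the cytosolic Arg1. Nags, on the mitochondrial supply side, was called, so the calls did not divide by compartment. Otc averaged 375 ± 60.8 CPM in WT CDAHFD livers and 471 ± 34.9 CPM in chow livers (SD, n = 6 and 5), a log2 fold change of -0.33 ± 0.14 (edgeR adjusted p = 0.072). It was called without WT CDAHFD sample 6 (adjusted p = 0.0378). Cps1 had 403, 1039 and 1642 CPM (lowest, median, highest) in WT CDAHFD livers, against 1037, 1314, 1710.3, 962 and 985 CPM in chow livers. The 2 groups overlapped widely, with a log2 fold change of -0.15 ± 0.33 (edgeR adjusted p = 0.776), whose sign turned without chow sample 3 (0.01) or WT CDAHFD sample 2 (0.04).

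The 2 supporting genes parted. Nags had 41.0, 54.1 and 71.0 CPM (lowest, median, highest) in WT CDAHFD livers, against 67.3, 100.05, 101, 88.8 and 87.0 CPM in chow livers. Only WT CDAHFD sample 6 lay above the lowest chow liver, and the log2 fold change was -0.70 ± 0.14 (edgeR adjusted p = 0.000447). Slc25a15 averaged 165 ± 53.4 CPM in WT CDAHFD livers and 177 ± 18.8 CPM in chow livers (SD, n = 6 and 5). Its log2 fold change was -0.10 ± 0.21 (edgeR adjusted p = 0.753), and 3 WT CDAHFD livers lay below and 3 above every chow liver; without WT CDAHFD sample 2 the value was 0.03.

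Of the 3 amino acid catabolic enzymes, Hal and Gls2 had the largest changes of the 10 genes. Hal, the entry step of histidine breakdown, had 129, 185 and 395 CPM (lowest, median, highest) in WT CDAHFD livers, against 462, 512, 489, 490.1 and 445 CPM in chow livers. All 6 WT CDAHFD livers were below every chow liver, and the WT CDAHFD mean was 46.7% of the chow mean (log2 fold change -1.10 ± 0.24, edgeR adjusted p = 0.00103). Gls2 had 121, 169 and 245 CPM (lowest, median, highest) in WT CDAHFD livers, against 333, 388, 307, 399 and 394 CPM in chow livers. The groups again did not overlap, and the WT CDAHFD mean was 50.0% of the chow mean (log2 fold change -1.001 ± 0.18, edgeR adjusted p = 0.000207). Sds, which turns serine into pyruvate and ammonia, averaged 218 ± 90.4 CPM in WT CDAHFD livers and 314 ± 43.5 CPM in chow livers (SD, n = 6 and 5) and was not called (-0.53 ± 0.28, edgeR adjusted p = 0.179). With Ass1, Hal and Gls2 were the 3 of 10 genes whose WT CDAHFD livers all lay below every chow liver, as did 5.93% of all genes tested.

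Cell type markers moved with the diet beside these enzymes. The 15 hepatocyte genes had 7 called lower and 0 higher, with a median log2 fold change of -0.38. The 10 macrophage markers were all called higher (10 of 10), and their sum ranged over 378 to 736 CPM in WT CDAHFD livers and 193 to 350.0 CPM in chow livers. Of 10 stellate cell and fibroblast markers 6 were called higher, with sums of 519 to 1035 CPM in WT CDAHFD livers and 283 to 362 CPM in chow livers. None of these defining markers of macrophages was at 0 in any library. The part of these cell types in the lower enzyme levels was not tested. Scaled to the 15 hepatocyte genes, of which 7 were themselves called lower, 5 of the 10 enzymes were called lower. Under that scaling 478 of all 17104 genes were called lower.

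The sequences just upstream of 4 of the genes are shown as examples, 3 of genes called lower on the diet (Hal, Ass1 and Nags) and 1 of a gene that was not (Otc). Each is the 250 bases before the gene's start on the plus strand, 5′ to 3′, from RefSeq on GRCm38.p6: Hal at chr10:93488518-93488767, Ass1 at chr2:31470020-31470269, Nags at chr11:102145263-102145512 and Otc at chrX:10252055-10252304. Of the 10 genes, 5 were matched in the promoter table (these 4 and Slc25a15). Capitals mark matches to the motifs searched.
Hal: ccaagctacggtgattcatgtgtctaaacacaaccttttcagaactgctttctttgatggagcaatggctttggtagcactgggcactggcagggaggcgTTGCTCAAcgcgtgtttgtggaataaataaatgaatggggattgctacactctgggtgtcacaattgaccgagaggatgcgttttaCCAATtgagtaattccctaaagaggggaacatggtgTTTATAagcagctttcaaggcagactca
Ass1: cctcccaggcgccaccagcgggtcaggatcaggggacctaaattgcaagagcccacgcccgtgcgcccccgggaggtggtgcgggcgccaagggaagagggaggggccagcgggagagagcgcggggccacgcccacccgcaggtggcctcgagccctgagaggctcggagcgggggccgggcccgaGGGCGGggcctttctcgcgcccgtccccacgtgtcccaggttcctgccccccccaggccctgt
Nags: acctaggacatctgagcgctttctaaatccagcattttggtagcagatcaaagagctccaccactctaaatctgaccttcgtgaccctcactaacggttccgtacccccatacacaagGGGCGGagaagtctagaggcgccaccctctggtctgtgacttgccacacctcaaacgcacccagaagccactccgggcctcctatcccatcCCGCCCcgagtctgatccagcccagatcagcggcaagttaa
Otc: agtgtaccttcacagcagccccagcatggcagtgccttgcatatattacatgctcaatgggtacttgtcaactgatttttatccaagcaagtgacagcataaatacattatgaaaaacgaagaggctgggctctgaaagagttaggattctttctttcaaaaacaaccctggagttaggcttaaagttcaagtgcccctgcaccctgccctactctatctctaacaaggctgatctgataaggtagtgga

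The motifs were searched on both strands as exact letters, and a match is a description of the letters only. The Hal window held a C/EBP site (TTGCNNAA, present in 9.56% of 32851 promoters) 150 to 143 bases before the start, a CCAAT box (CCAAT, 33.9%) at 64 to 60 bases and, on the other strand, a TATA box (TATAAA, 12.4%) at 28 to 23 bases. The Ass1 window held 1 GC box (GGGCGG, 32.7%) and the Nags window 2, the second on the other strand. The Otc window held none of these, but the windows of Slc25a15, which was not called either and has 2 starts in the table, held 2 and 5 GC boxes. No match was found in these 4 windows for the CRE half-site (TGACG, 17.8%), the full CRE (TGACGTCA, 1.55%, which contains the half-site), the HNF4A-selective site (CAAAGTCC, 1.20%) or the glucocorticoid response half-site (AGAACA, 16.1%). The windows differed in base composition: GC content was 75.6% for Ass1, 55.6% for Nags, 45.6% for Hal and 43.6% for Otc, beside a median of 52.4% over all promoters.

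The homozygous comparison asked whether loss of Mtarc1 moved these enzymes on the diet. None of the 10 genes was called in homozygous KO against WT CDAHFD livers by edgeR, DESeq2 or limma voom, and 2 of 10 had an unadjusted edgeR p under 0.05, beside 9.97% of all genes. After adjustment 0.00585% of all genes were called, which is Mtarc1 alone. The 10 fitted log2 fold changes ran from 0.06 (Sds) to 0.44 (Nags), with a median of 0.20 beside 0.01 for all genes; with scaling to the hepatocyte genes Sds was at -0.01.

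Nags had the lowest p of the 10. It had 55.0, 73.7 and 91.2 CPM (lowest, median, highest) in homozygous KO livers, against 41.0, 54.1 and 71.0 CPM in WT CDAHFD livers. All 8 homozygous KO livers were above the WT mean and 5 were above every WT liver, with a log2 fold change of 0.44 ± 0.13 (unadjusted p = 0.00149, edgeR adjusted p = 0.207). Leaving out each library in turn gave adjusted p between 0.0707 and 0.543. With the series of library numbers as a covariate, the Nags value was 0.40 (edgeR adjusted p = 0.379). Fitted by series, it was 0.58 in the 9000s and 0.26 in the 11000s. Gls2 had 184, 218 and 330.3 CPM (lowest, median, highest) in homozygous KO livers, against 121, 169 and 245 CPM in WT CDAHFD livers, with 8 of 8 above the WT mean. Its log2 fold change of 0.35 ± 0.17 was not called (unadjusted p = 0.046, edgeR adjusted p = 0.483).

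For Hal the difference was 0.43 ± 0.21 (edgeR adjusted p = 0.518), with 301 ± 81.2 CPM in homozygous KO livers and 224 ± 104 CPM in WT CDAHFD livers. Cps1 stood at 1343 ± 493 and 1085 ± 459.6 CPM in the same order, a difference of 0.31 ± 0.30 (edgeR adjusted p = 0.797). For both genes the knockout and WT livers overlapped, and the difference was near or below 2 standard errors. Asl averaged 332 ± 85.2 CPM in homozygous KO livers and 305 ± 87.4 CPM in WT CDAHFD livers, and 1 of 8 homozygous KO livers lay above every WT liver. Arg1 averaged 1132 ± 255 and 1039 ± 266 CPM in that order, with 2 of 8 above every WT liver.

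In heterozygous KO against WT CDAHFD livers 0 of 10 genes were called by edgeR, DESeq2 or limma voom, and 0% of all genes were called by edgeR. Mtarc1 itself was thus not called by edgeR here, at a log2 fold change of -0.55 ± 0.15 (SE). The lack of calls in this comparison therefore does not show that the 10 genes were unchanged. An unadjusted edgeR p under 0.05 was reached by 1 of 10, near the 8.44% of all genes. The fitted values ran from 0.02 (Otc) to 0.55 (Cps1), with a median of 0.19 beside -0.01 for all genes; raw library totals and scaling to the hepatocyte genes put Otc (-0.03 and -0.07) and Sds (-0.01 and -0.04) below 0. Cps1 had 667, 1471 and 2301 CPM (lowest, median, highest) in heterozygous KO livers, against 403, 1039 and 1642 CPM in WT CDAHFD livers. This spread left the difference of 0.55 ± 0.31 uncalled (edgeR adjusted p = 0.569). Nags averaged 66.99 ± 6.10 CPM in heterozygous KO livers and 54.7 ± 12.3 CPM in WT CDAHFD livers, with 7 of 7 above the WT mean (0.29 ± 0.13, unadjusted p = 0.0311, edgeR adjusted p = 0.569). By series of library numbers, this Nags difference was 0.65 in the 9000s and 0.0086 in the 11000s. The homozygous and heterozygous comparisons share the 6 WT CDAHFD livers, so their like signs are not independent.

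Homozygous against heterozygous KO livers, which share no sample with WT, also gave 0 of 10 calls by edgeR, DESeq2 and limma voom and 0 of 10 with an unadjusted edgeR p under 0.05, where 0.00585% of all genes were called and 7.13% had such a p. The log2 fold changes ran from -0.24 (Cps1) to 0.22 (Gls2), with a median of 0.02 and 3 of 10 below 0. Adjusted p ran from 0.749 to 1 (edgeR). Arg1 averaged 1132 CPM in both KO groups (SD 255 in homozygous and 294 in heterozygous KO livers).

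**Figure D2:**
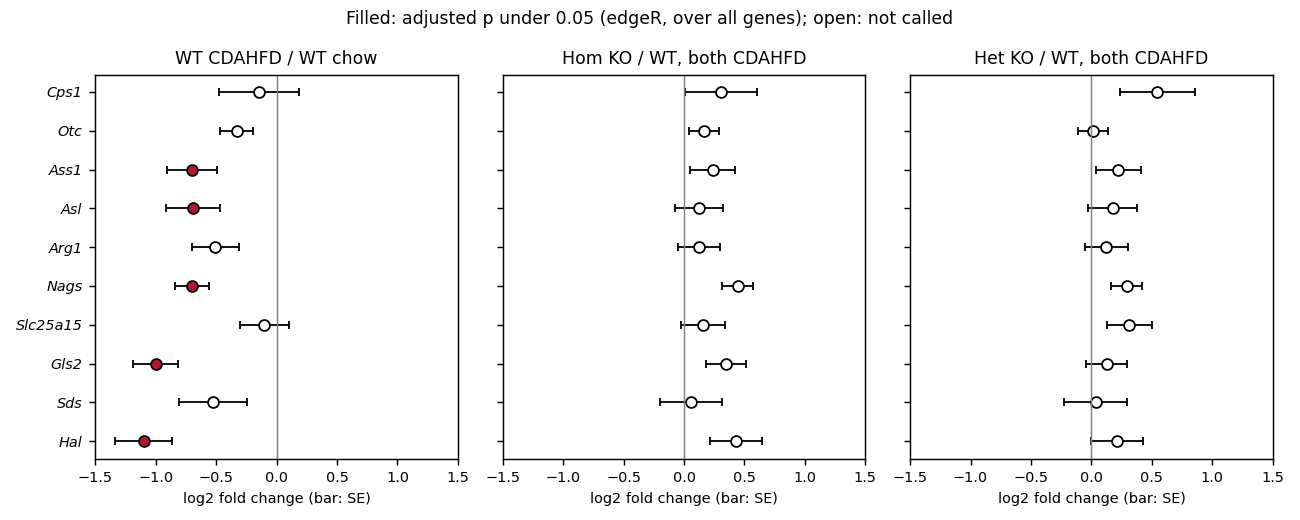
Log2 fold change (horizontal axis) with its SE for the 10 genes in WT CDAHFD over WT chow, homozygous KO over WT and heterozygous KO over WT livers, fitted in edgeR over all 26 libraries; filled points have an adjusted p under 0.05. The diet panel has 5 filled points (Hal, Gls2, Ass1, Nags and Asl), and the 2 genotype panels have none.

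The genotype values depended on the series of library numbers. Within the 9000s, homozygous KO livers were above WT CDAHFD livers for 10 of 10 genes (median log2 fold change 0.59, 0.30 to 0.79; 2 against 3 libraries), while within the 11000s 6 of 10 lay below 0 (median -0.03, -0.15 to 0.26; 6 against 3 libraries). For heterozygous KO livers the medians were 0.66 in the 9000s (10 of 10 above 0) and -0.25 in the 11000s (7 of 10 below 0). None of the 10 genes was called by edgeR in either series, and the difference between the series was not tested.

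The split lay in the WT CDAHFD livers as well as the KO livers. In WT CDAHFD livers the 3 libraries of the 9000s had lower means than the 3 of the 11000s for 10 of 10 genes, and for 2 genes every library of the 9000s lay below every one of the 11000s, as did 6.3% of all genes: Otc had 283 to 364 CPM in the 9000s and 402 to 455 CPM in the 11000s, and Nags had 41.0 to 53.6 and 54.6 to 71.0 CPM in that order. In heterozygous KO livers the 3 libraries of the 9000s had higher means than the 4 of the 11000s for 10 of 10 genes, and in homozygous KO livers the 2 of the 9000s were higher for 7 of 10. Ass1 shows it: heterozygous KO livers averaged 2410 CPM in the 9000s and 1737 CPM in the 11000s, while WT CDAHFD livers averaged 1412 and 2058 CPM in that order. With the series as a covariate in the fit the median differences were 0.21 in homozygous and 0.19 in heterozygous KO livers, and 0 of 10 genes were called in either. That term shifts all groups alike, so it cannot account for genotype values that differ between the series.

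The diet difference was below 0 in both series for 8 of 10 genes. Its median was -0.61 in the 9000s (10 of 10 below 0, with a single chow library) and -0.42 in the 11000s (8 of 10 below 0, with Cps1 at 0.12 and Slc25a15 at 0.01). In the 11000s Nags and Gls2 were called (edgeR adjusted p = 0.0166 and 0.0251). The other diet calls were lost there: Hal was at -0.77 (edgeR adjusted p = 0.0846), Asl at -0.54 (0.155) and Ass1 at -0.43 (0.253). In the 9000s Gls2 and Hal had edgeR adjusted p = 0.0342 each, but these rest on 1 chow library, which is assumed to vary like the other groups.

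**Figure D3:**
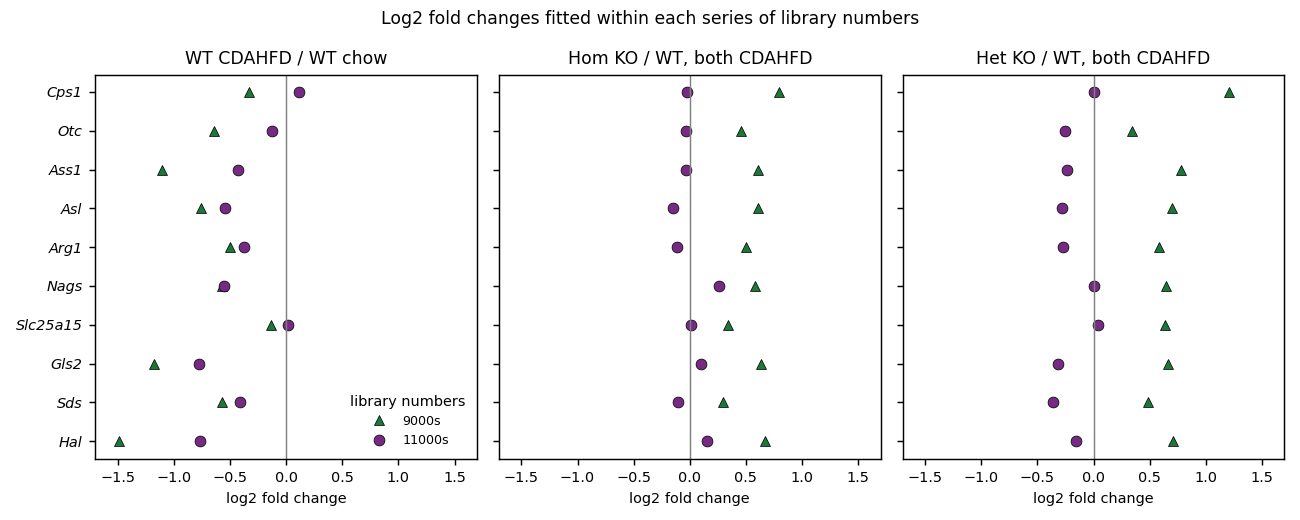
Log2 fold change (horizontal axis) of the 10 genes fitted in edgeR within the 9000s (triangles) and the 11000s (circles) for the diet, homozygous and heterozygous comparisons. The genotype triangles lie at 0.30 or above, and the genotype circles between -0.36 and 0.26.

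Set against chow livers, Gls2 and Hal were called lower in both KO groups on CDAHFD, Asl in homozygous KO livers and Nags in heterozygous KO livers. Over all genes, 10.8% were called lower in homozygous KO livers and 17.9% in heterozygous KO livers. Homozygous KO livers had 3 of 10 genes called lower (Gls2 -0.65 ± 0.17, adjusted p = 0.00677; Hal -0.67 ± 0.22, 0.0281; Asl -0.57 ± 0.21, 0.0473; edgeR), and heterozygous KO livers 3 of 10 (Gls2 -0.87 ± 0.18, 0.000484; Hal -0.89 ± 0.23, 0.00368; Nags -0.41 ± 0.13, 0.0187; edgeR). All 8 homozygous and all 7 heterozygous KO livers lay below every chow liver in Hal, and all 7 heterozygous KO livers did so in Gls2; over all genes, every KO liver lay below every chow liver for 3.16% in the homozygous and 6.1% in the heterozygous comparison. Ass1, Otc, Arg1, Sds, Cps1 and Slc25a15 were called in neither; with scaling to the hepatocyte genes, Slc25a15 was called higher in heterozygous KO livers (0.43, edgeR adjusted p = 0.031).

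These 2 comparisons share the 5 chow livers with each other and with the diet comparison, and several calls rest on single libraries. Asl in homozygous KO livers was lost (adjusted p up to 0.127) in 13 of the 26 fits that each left out 1 library: chow samples 1, 2, 4 and 5, WT CDAHFD sample 1, heterozygous KO samples 3, 5 and 7, and homozygous KO samples 2, 4, 5, 6 and 7. Hal in homozygous KO livers was lost without chow sample 2 (0.0617), chow sample 4 (0.0554) or homozygous KO sample 4 (0.0542), which left 1 gene called. Nags in heterozygous KO livers was lost without chow sample 2 (0.0576). Scaling ended calls as well: with raw library totals and with scaling to the hepatocyte genes, Nags in heterozygous KO livers was at -0.21 (edgeR adjusted p = 0.204) and -0.17 (0.316). In homozygous KO livers the same 2 scalings gave adjusted p of 0.0965 and 0.0675 for Asl and 0.0723 and 0.0643 for Hal, and without a filter on low counts these were 0.103 and 0.0749 (edgeR). In heterozygous KO livers the count was 5 without WT CDAHFD sample 2, heterozygous KO sample 2 or homozygous KO sample 3. It was 6 without heterozygous KO sample 1. Over the 26 such fits, 2251 to 3226 of all genes were called lower in that comparison.

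Ratios of paired genes within a library do not depend on how libraries are scaled. The ratio of Cps1, which fixes ammonia periportally, to Glul, the pericentral glutamine synthetase, had geometric means of 1.04, 0.972, 0.810 and 1.08 in the order homozygous KO, heterozygous KO, WT CDAHFD and chow livers. The diet difference was -0.42 on the log2 scale (two-sided exact permutation p = 0.165, 0.382 after adjustment over 12 tests; the smallest p possible was 0.00216), which did not exceed the spread. The ratio of Arg1 to Arg2 was lower in WT CDAHFD than in chow livers by the fitted means (log2 difference -2.16, exact permutation p = 0.0173, adjusted 0.0692), but Arg2 had only 1 to 3 counts in each chow library. Without WT CDAHFD sample 6, the Arg1 to Arg2 ratio passed after adjustment in the diet (-2.68, exact permutation p adjusted 0.0318) and homozygous comparisons (1.15, adjusted 0.00932). Homozygous against heterozygous KO livers differed by 0.89 in Arg1 to Arg2 (exact permutation p = 0.0106, adjusted 0.0636), and by 1.05 (adjusted 0.00799) without heterozygous KO sample 6. Arg2 counts were low in these groups too, at 4 to 7 per homozygous KO library and 4 to 23 per heterozygous KO library. With all libraries, 0 of the 8 tests of these ratios passed after adjustment, and 2 had an unadjusted p under 0.05.

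**Figure D4:**
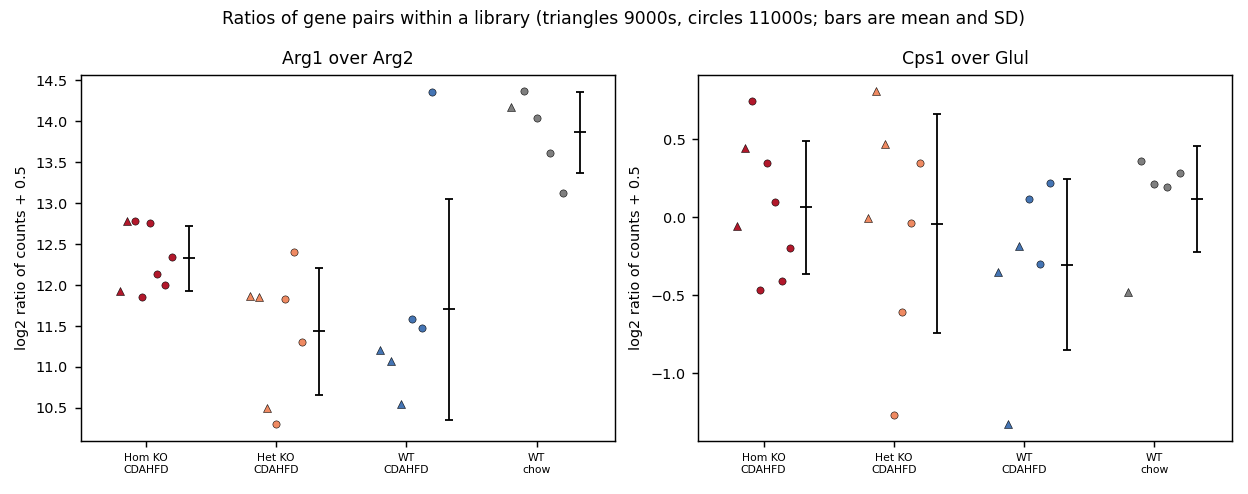
Log2 ratio of counts, 0.5 added to each (vertical axis), for 2 gene pairs in each library, with homozygous KO, heterozygous KO, WT CDAHFD and WT chow livers from left to right; bars are mean and SD. In the Arg1 to Arg2 panel WT CDAHFD sample 6, with a linear ratio of 20954, sits far above the other WT CDAHFD livers; the Cps1 to Glul groups overlap.

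Of 29 further genes of ammonia, glutamine, proline, histidine and amino acid transfer, 5 were called higher and 8 lower in WT CDAHFD livers, with a median log2 fold change of -0.11, where 14.8% of all genes were called higher and 12.2% lower. The list holds 3 genes that act after Hal in histidine breakdown, and all 3 fell: Uroc1, urocanase, had -0.81 ± 0.14 (edgeR adjusted p = 0.00012) and Ftcd, which passes the formimino group to folate, -0.62 ± 0.11 (0.00011), and Amdhd1, imidazolonepropionase, was at -0.44 ± 0.14 (0.0182). Of the enzymes of proline breakdown, Prodh was at -0.70 ± 0.20 (edgeR adjusted p = 0.0118) and the hydroxyproline enzyme Prodh2 at -0.55 ± 0.13 (0.00305), while Aldh4a1, the next enzyme, was not called (-0.0095 ± 0.23, 0.981). Agxt, the peroxisomal alanine-glyoxylate aminotransferase, fell by 0.81 ± 0.16 (edgeR adjusted p = 0.000459).

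Genes that rose included Gpt2, the mitochondrial alanine aminotransferase (0.87 ± 0.15, edgeR adjusted p = 0.00011), and Asns, which makes asparagine (1.34 ± 0.27, 0.000438). Arg2 was called higher too (edgeR adjusted p = 0.00453), on 1 to 16 counts per WT CDAHFD library against 1 to 3 per chow library. In homozygous KO against WT CDAHFD livers 0 of the 29 were called, and Arg2 had -0.79 ± 0.38 (edgeR adjusted p = 0.483). In heterozygous KO livers 0 of 29 were called, with Glud1, glutamate dehydrogenase, at 0.35 ± 0.15 (edgeR adjusted p = 0.569).

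Of 12 genes of the periportal zone with other functions, 3 were called lower in WT CDAHFD livers and 1 higher: Igf1 (-0.89 ± 0.16, edgeR adjusted p = 0.000208), Alb (-0.53 ± 0.15, 0.0105) and Sult5a1 (-0.75 ± 0.26, 0.0329) fell, and Hsd17b13, a lipid droplet enzyme, rose (1.19 ± 0.15). Of 15 pericentral genes 3 were called lower and 3 higher: Rgn (-0.77 ± 0.14, edgeR adjusted p = 0.000231) and Tbx3 (-1.03 ± 0.20, 0.000336) fell, and the ammonium transporter Rhbg (0.90 ± 0.21, 0.00245) and Lect2 (0.35 ± 0.10, 0.00683) rose. Over all genes 12.2% were called lower and 14.8% higher.

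Among 13 tested regulators of these enzymes, including hormone receptors and transcription factors, 2 were called lower in WT CDAHFD livers and 0 higher, near the 12.2% of all genes called lower. Crtc2, a coactivator in glucagon signalling, had -0.46 ± 0.08 (edgeR adjusted p = 6.9e-05), and Nr3c1, the glucocorticoid receptor, -0.24 ± 0.07 (0.017). None of the periportal, pericentral and regulator genes was called in homozygous or heterozygous KO against WT CDAHFD livers. The lowest p of the periportal and pericentral genes in homozygous KO livers were those of Alb (0.22 ± 0.14) and Rgn (0.31 ± 0.13), with edgeR adjusted p of 0.638 and 0.415. In heterozygous KO livers they were those of Cyp2f2 (0.36 ± 0.19) and Gulo (0.33 ± 0.13), each at an edgeR adjusted p of 0.569.

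Within the 21 livers on CDAHFD, pooled over both series of library numbers, the 10 enzymes varied together after group means were removed. Their 45 pairwise Pearson r ran from 0.23 to 0.97 with a median of 0.70, and 35 had a permutation p under 0.05 after adjustment over 75 relations. The points share a library, its depth and its scaling, and libraries were permuted within groups but not within the series of library numbers. The share of all genes with such an r was not computed, here or for the mitochondrial share and the scores below. The highest r was that of Asl with Arg1, at 0.97 (rho = 0.97, r = 0.96 without the 2 farthest livers; 0.88 in the 9000s and 0.99 in the 11000s), and Sds had r = 0.93 with either. For Asl with Arg1 both permutation p were 1e-05, the smallest possible, and the adjusted p was 0.000107.

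Cps1 with Slc25a15 had r = 0.94 (rho = 0.94, r = 0.93 without the 2 farthest livers; 0.95 in the 9000s and 0.94 in the 11000s; permutation p = 1e-05 each, adjusted 0.000107). Ass1 with Gls2 had r = 0.96 (rho = 0.96, r = 0.95 without the 2 farthest livers; 0.95 in both series; permutation p = 1e-05 each, adjusted 0.000107). Ass1 had r of 0.92 with Asl, 0.91 with Arg1 and 0.91 with Sds in the 11000s, against 0.10, 0.46 and 0.063 in the 9000s. At the other end Nags with Sds had r = 0.23 (rho = 0.18, permutation p = 0.358 and 0.465, adjusted 0.389), with -0.57 in the 9000s and 0.37 in the 11000s. Within the 13 livers of the 11000s 45 of 45 pairs were above 0. Within the 8 of the 9000s 37 of 45 were, and the lowest r was -0.66 (Asl with Nags).

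The share of counts from the mitochondrial genome moved against part of the set. That share averaged 9.29 ± 1.64% in homozygous KO, 8.08 ± 1.85% in heterozygous KO, 10.1 ± 2.33% in WT CDAHFD and 13.1 ± 2.98% in chow livers (SD, n = 8, 7, 6 and 5). Within CDAHFD livers Slc25a15 had r = -0.87 with it (rho = -0.88, permutation p = 5e-05 and 6e-05, adjusted 0.00025; r = -0.90 without the 2 farthest livers), and Cps1 had r = -0.85 (rho = -0.85, permutation p = 2e-05 and 3e-05, adjusted 0.00015; r = -0.87 without the 2 farthest livers). Both relations held within the 9000s (-0.79 for Slc25a15 and -0.66 for Cps1) and within the 11000s (-0.89 and -0.91). Otc, which works in the same compartment, had r = -0.20 (rho = -0.17, permutation p = 0.413 and 0.487, adjusted 0.442). In all, 6 of the 10 genes passed after adjustment; r with the share was above 0 for 4 of the 10 in the 9000s (up to 0.57) and for 0 in the 11000s, and the part of RNA quality in these relations was not tested.

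A mean score of the 15 hepatocyte genes was related to 9 of the 10 enzymes after adjustment, most closely to Arg1 (r = 0.87, rho = 0.84, permutation p = 2e-05 and 4e-05, adjusted 0.00015; r = 0.83 without the 2 farthest livers, 0.83 in the 9000s and 0.84 in the 11000s). By series, the median r over the 10 enzymes was 0.32 in the 9000s, with Cps1 at 0.18, Slc25a15 at 0.12, Hal at -0.098 and Nags at -0.28, and 0.74 in the 11000s, where the lowest was 0.42. Pooled, Nags was the exception (r = 0.34, rho = 0.28, permutation p = 0.151 and 0.243, adjusted 0.18). A macrophage score passed with 0 of the 10 (r from -0.47 to -0.13). Within the 8 livers of the 9000s its r was -0.82 with Asl, -0.83 with Sds, -0.62 with Arg1 and 0.77 with Nags, and within the 11000s it lay between -0.27 and 0.22. Of these 10, Otc alone had an unadjusted permutation p under 0.05 (r = -0.47, rho = -0.48, p = 0.0387 and 0.0423, adjusted 0.0548).

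**Figure D5:**
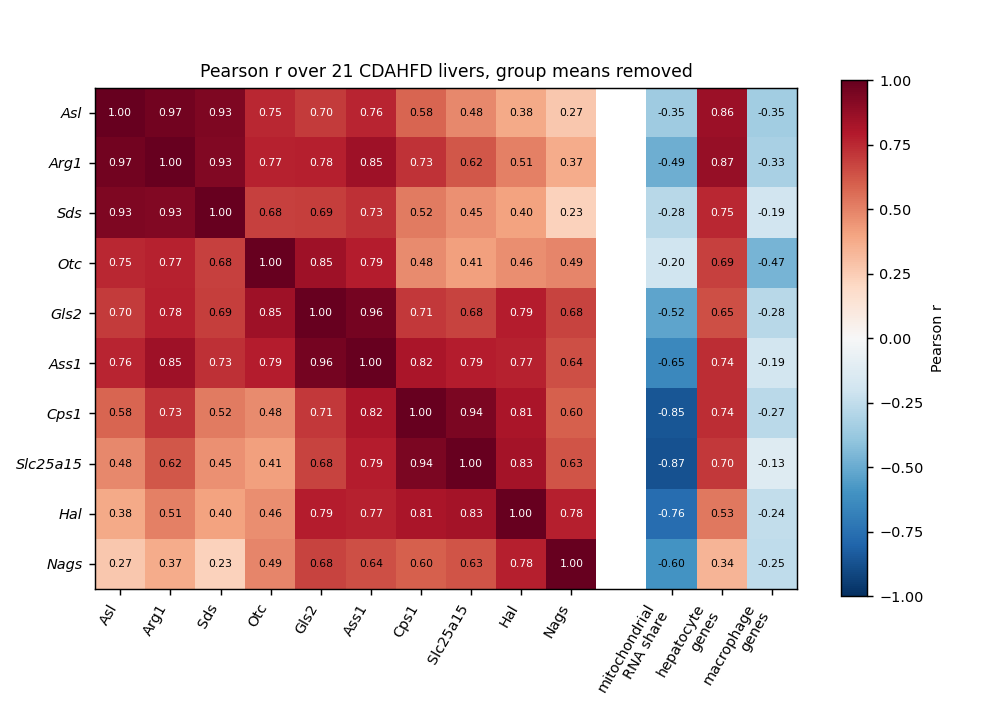
Pearson r (colour and printed value, -1 to 1) between the 10 genes, and of each with the mitochondrial RNA share and the hepatocyte and macrophage scores, over 21 CDAHFD livers after removing group means from log2 CPM. Asl, Arg1 and Sds have pairwise r of 0.93 to 0.97, and Cps1 and Slc25a15 have the most negative values with the mitochondrial share (-0.85 and -0.87).

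Over all 26 livers, with group means removed, the genes outside the set most like each enzyme were ranked by Pearson r of log2 CPM, given as a description. Cps1 was closest to Gpld1 (0.96), Aldh8a1 (0.95) and Tmprss6 (0.94), and Slc25a15 to Aldh8a1 (0.94), Abat (0.94) and Tmem185a (0.93). Ass1 was closest to Aass, of lysine breakdown (0.95), Ivd, of leucine breakdown (0.93), and Aldh1l1 (0.92). Gls2 was closest to Uroc1 (0.94), Ivd (0.91) and Selenbp1 (0.90), so Ass1 and Gls2 share Ivd.

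The block of Asl, Arg1 and Sds shared neighbours as well: Smarcd2 (0.92, 0.89 and 0.84) and the unnamed gene model Gm16573 (0.90, 0.89 and 0.88) were in the top 3 of each. Ahcy, which clears S-adenosylhomocysteine, was close to Arg1 (0.91) and Sds (0.85), and Slc29a1 to Asl (0.89). Otc was closest to Ndufc2, a complex I subunit (0.92), Hebp1 (0.91) and Gchfr (0.91). Nags was closest to Ppa1 (0.86), Mocs1 (0.84) and Mrpl49 (0.84), and Hal to Qprt (0.86), Amacr (0.86) and Aldh1b1 (0.86).

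Of the enzymes, 3 overlap genes on the opposite strand, and use of strand in the counting is not stated. Sds overlaps Plbd2, which had up to 3020 counts against at least 3096 for Sds, and the antisense Gm15690 (up to 39.0 counts). Gls2 overlaps Spryd4 (up to 936 counts against at least 3479), and Nags the antisense Gm11586 (up to 100.5 against at least 975.0). The overlap is of whole gene spans, introns included, and shared exon sequence was not checked. How far the values of these 3 genes are affected was not tested.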

How the data were processed

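Total RNA from mouse liver was column-purified and the libraries were prepared with an NEBNext Ultra II kit, as the labels' protocols give it. The submitters' processing notes name cutadapt 3.5, Salmon 1.4.0 and the GRCm39 build, without their order or settings. The deposited table holds estimated counts from the authors, unnormalised, for 55642 genes in 26 libraries; 54.4% of its values above 0 were whole within 1e-09. Counts were rounded, filtered with filterByExpr and fitted in edgeR 4.0.16 (R 4.3.3; TMM, robust quasi-likelihood, 4 groups, 26 libraries), with Benjamini-Hochberg adjustment over 17104 genes and calls at 0.05. CPM are TMM-scaled. Alternatives used DESeq2 1.42.0 and limma 3.58.1. Exon lengths came from GENCODE M21 on GRCm38, and gene names from a table that matched 92.5% of IDs. Ratios used counts plus 0.5 and exact permutation tests; correlations used 100000 permutations within groups. Named genes were the 10 enzymes, up to 8 called nitrogen genes and up to 4 called genes of each other list by lowest p (otherwise the lowest 2 or 1), and the 3 genes most like each enzyme with a mean of at least 10 CPM. Some items that these rules name, among them 1 of the 3 gene pairs adjusted together over 12 tests, are not reported here. Members and gene lists were chosen with earlier results of these data known. The comparisons of KO livers with chow were added after the data were seen. The code was tested on simulated data. Replicate pairs differed beyond counting noise (chi-square per degree of freedom 16.9 to 129.4 over 74 pairs). Depth was 24785993 ± 2651975 counts (SD, n = 26), at which counting error is small beside the spread between samples (biological coefficient of variation 21.5%).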

Additional observations from a re-analysis of the deposited data

Results flagged for a closer look

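The Arg1 to Arg2 ratio of WT CDAHFD sample 6 was 20954, far above the next highest WT CDAHFD liver at 3079; the gap was 0.919 of the group's range, and Arg2 had 1 count in that library. The Cps1 to Glul ratio of chow sample 1 was 0.716, below the next lowest chow liver at 1.14, a gap of 0.751 of the range. These are 2 of 52 groups of values examined, where chance would give about 2.6.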

How the results depend on the processing

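With the sample number as a replicate block, 5 of 10 enzymes were again called lower on the diet. The share of all genes called lower in that fit is not given here. The enzymes' medians were -0.59, 0.20 and 0.21 (diet, homozygous and heterozygous against WT), and Sds in homozygous KO livers was at -0.047. Asl lost its call in homozygous KO against chow livers (edgeR adjusted p = 0.0873). In homozygous KO against WT livers 2 genes in all were called. The labels do not say whether equal numbers pair the samples. The mean correlation was 0.03 over 34 same-number pairs, 16 of them above 0.1. It was -0.005 over 217 pairs of other numbers, 55 of them above 0.1. Sample numbers follow the series of library numbers in part. In every group sample 1 is in the 9000s, and samples from 4 upward are in the 11000s. Equal numbers therefore often share a series, and its part in the block and in these correlations was not tested.

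Raw library totals put the diet values of Cps1 and Slc25a15 at 0.075 and 0.13, and the heterozygous values of Otc and Sds at -0.026 and -0.0098. With them, 704, 628 and 1203 genes in all were called lower in the diet, homozygous against chow and heterozygous against chow comparisons, and 1 enzyme was called in homozygous KO against chow livers. Hepatocyte scaling gave 0.13 and 0.18 for Cps1 and Slc25a15 on the diet, -0.013 for Sds in homozygous KO livers, and -0.066 and -0.041 for Otc and Sds in heterozygous KO livers. Its 3 counts of lower genes were 478, 476 and 842, with 1 enzyme lower in homozygous KO and 1 higher in heterozygous KO against chow livers (Slc25a15 at 0.43, adjusted p = 0.031). Without a filter, 1201 genes and 1 enzyme were called lower in homozygous KO against chow livers. DESeq2 called 47, 3 and 15 genes in the homozygous, heterozygous and homozygous against heterozygous comparisons. Against chow, heterozygous KO livers had 5 enzymes lower with limma voom or with the 2 groups alone. With limma voom, 3081 genes in all were called lower there.

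In the 11000s alone, Cps1 and Slc25a15 were at 0.12 and 0.014 on the diet. Homozygous values against WT were -0.026 for Cps1, -0.037 for Otc, -0.031 for Ass1, -0.15 for Asl, -0.11 for Arg1 and -0.11 for Sds. Heterozygous values were -0.25 for Otc, -0.24 for Ass1, -0.28 for Asl, -0.28 for Arg1, -0.32 for Gls2, -0.36 for Sds and -0.15 for Hal. There, 951 genes and 2 enzymes were lower on the diet, and 1954 genes and 6 enzymes in heterozygous KO against chow livers. In the 9000s alone, 125 genes and 2 enzymes were lower on the diet, 4 genes and 0 enzymes in homozygous and 12 genes and 0 enzymes in heterozygous KO against chow livers (Nags at 0.077); 2 genes were called in homozygous KO against WT and 0 in homozygous against heterozygous KO livers. These series hold fewer samples, and the 9000s a single chow library, assumed to vary like the other groups.

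Leaving out each library in turn gave -0.30 to 0.038 for Cps1 and -0.19 to 0.030 for Slc25a15 on the diet, -0.072 to 0.23 for Sds in homozygous KO livers, and -0.066 to 0.078 for Otc and -0.078 to 0.20 for Sds in heterozygous KO livers. Enzymes called lower numbered 4 to 7 on the diet, 1 to 4 in homozygous and 2 to 6 in heterozygous KO against chow livers. Over all genes, 1637 to 2118, 1196 to 1993 and 2251 to 3226 were called lower in the same order. Genes called in homozygous KO against WT livers numbered 1 to 4 (4 without WT CDAHFD sample 4, 2 without sample 1 or 5), and those lower against chow 1196 (without chow sample 5) to 1993. For Arg1 to Arg2, log2 ratio differences ran from -2.68 to -1.92 on the diet, 0.39 to 1.15 in homozygous KO, -0.50 to 0.26 in heterozygous KO (0.26 without WT CDAHFD sample 6) and 0.70 to 1.05 in homozygous against heterozygous KO livers, and for Cps1 to Glul from -0.10 to 0.24 in the last. The cause of these changes was not tested. Arg2, at 1 to 3 counts per chow library and 4 to 7 per homozygous KO library, limits its ratio.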
